A study of Mus musculus with 6 samples.

Results

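The CXC chemokine genes are a family of small secreted proteins, and 10 of them (Cxcl1, Cxcl2, Cxcl3, Cxcl5, Cxcl9, Cxcl10, Cxcl12, Cxcl14, Cxcl15 and Cxcl16) were followed here among the 27179 genes counted by mRNA sequencing of mouse embryonic fibroblast (MEF) lines. They were picked by name from the counts of all 6 libraries with the differences between the lines already known, so that their levels and folds describe the lines and are given with no p-value. All 3 lines were knockouts of Cry1, Cry2, Per1, Per2, Nr1d1 and Nr1d2 and lacked the endogenous proteins. These are genes of the negative limb of the circadian clock. The lines grew in DMEM with 10% serum. The CPN-/- line was the parent of the others and carried nothing further. The CPN-/- CRY1 line also expressed exogenous CRY1, and the CPN-/- CRY2 line exogenous CRY2. Both exogenous genes were driven by a viral promoter and not by that of the endogenous gene. The lines with exogenous CRY were infected with virus, selected with blasticidin and picked as single colonies. No infected and selected line without exogenous CRY was among the libraries. Against CPN-/-, infection and selection, a property of the colony and an effect of the CRY protein therefore cannot be told apart. Each line had 2 libraries from independent RNA preparations, and errors and p-values measure the spread between such preparations only. The comparisons asked how the mRNA of CPN-/- cells differed once CRY1 or CRY2 was put back, and whether the lines with CRY1 and CRY2 differed from each other. Both comparisons with CPN-/- used the same CPN-/- libraries, so they are not independent of each other.

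CXC chemokines guide leukocytes along gradients by binding G protein-coupled receptors on the migrating cell. The group around Cxcl1 (Cxcl1, Cxcl2, Cxcl3, Cxcl5 and Cxcl15) attracts neutrophils, chiefly through Cxcr2, and stromal cells such as fibroblasts make its mRNA when inflammatory signals activate NF-kappaB. Cxcl9 and Cxcl10 are induced by interferons and bind Cxcr3 on T cells, whereas Cxcl12 is made constitutively by mesenchymal cells and holds progenitor cells in place through Cxcr4.

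Total counts per library ranged from 25957409 to 36106949, and levels are given as CPM, the counts per 1000000 counts of a library scaled by the trimmed mean of M values (TMM). A count of 3 in a library, the upper limit that a count of 0 allows, corresponded to between 0.083 and 0.115 CPM. Cry1 mRNA was at 165 and 190 CPM in the libraries with exogenous CRY1, 125 and 115 CPM in CPN-/- and 51.0 and 48.3 CPM with CRY2. Cry2 mRNA was at 349 and 351 CPM in the libraries with exogenous CRY2, 136 and 129 CPM in CPN-/- and 50.7 and 51.7 CPM with CRY1. Reads of both knocked-out genes were thus still counted in CPN-/-. Of 8 fibroblast markers, Col1a1, Col1a2 and Vim were abundant, and the 8 together summed to between 9007 and 11053 CPM in CPN-/-, 10083 and 10367 CPM with CRY1, and 13579 and 13902 CPM with CRY2. Thy1 and Dcn, which also mark fibroblasts, were at 2.24 CPM or less in every library. Of the 7 fibroblast markers tested, 2 were called lower and 1 higher with CRY1 (edgeR, adjusted p under 0.05), and 0 lower and 1 higher with CRY2. Between CRY1 and CRY2, 3 were lower with CRY1 and 0 higher. The shares called over all tested genes were 24.3%, 6.66% and 16.3% in the same order. In the CPN-/- line the difference between the 2 libraries rose with transcript length (Spearman's rho of 0.7 across 12478 genes), against -0.2 with CRY1 and 0.29 with CRY2.

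The genes of the Cxcl1 group lie head to tail on the plus strand of chromosome 5. In the mm10 (GRCm38) build the run from Cxcl5 to Cxcl2 spans chr5:90759298-90905938, which is 146.6 kb and also holds Ppbp and Pf4. Cxcl9 and Cxcl10 lie 1415.4 kb further on, on the minus strand, within 27.6 kb. Cxcl12 is on chromosome 6, Cxcl16 on chromosome 11 and Cxcl14 on chromosome 13.

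The 250 bases before the annotated start are shown for the members of the Cxcl1 group that share a kappaB motif and for Cxcl10, since NF-kappaB, interferon and clock factors bind elements of these kinds. The sequences are from RefSeq on GRCm38.p6, and capitals mark the matches to the motifs that were searched on both strands. Cxcl1 is at chr5:90890995-90891244 on the plus strand, Cxcl2 at chr5:90903649-90903898 on the plus strand, Cxcl3 at chr5:90785851-90786100 on the plus strand and Cxcl10 at chr5:92348890-92349139 on the minus strand.
Cxcl1: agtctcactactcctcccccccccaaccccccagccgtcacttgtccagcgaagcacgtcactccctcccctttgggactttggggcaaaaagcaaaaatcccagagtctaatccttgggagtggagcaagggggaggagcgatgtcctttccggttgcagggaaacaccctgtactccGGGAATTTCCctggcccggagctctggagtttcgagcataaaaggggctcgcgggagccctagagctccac
Cxcl2: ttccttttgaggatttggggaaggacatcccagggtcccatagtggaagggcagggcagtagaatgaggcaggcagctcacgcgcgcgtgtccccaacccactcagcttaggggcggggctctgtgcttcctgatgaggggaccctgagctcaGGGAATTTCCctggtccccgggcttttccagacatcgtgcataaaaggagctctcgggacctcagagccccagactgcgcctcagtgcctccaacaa
Cxcl3: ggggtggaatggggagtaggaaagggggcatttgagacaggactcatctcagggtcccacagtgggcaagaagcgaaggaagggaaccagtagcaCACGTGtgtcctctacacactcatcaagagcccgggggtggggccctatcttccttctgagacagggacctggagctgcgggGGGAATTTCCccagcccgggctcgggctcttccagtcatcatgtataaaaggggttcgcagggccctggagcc
Cxcl10: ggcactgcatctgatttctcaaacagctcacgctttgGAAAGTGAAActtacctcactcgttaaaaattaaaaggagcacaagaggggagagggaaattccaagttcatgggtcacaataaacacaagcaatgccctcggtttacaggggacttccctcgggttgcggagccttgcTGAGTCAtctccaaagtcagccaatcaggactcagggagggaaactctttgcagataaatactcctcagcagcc

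The windows of 8 of the 10 members were in the table, which did not include Cxcl5 and Cxcl16. A kappaB motif, a binding sequence of NF-kappaB that the capitals of Cxcl1 and Cxcl2 show, began at base -71 of Cxcl1, -97 of Cxcl2 and -73 of Cxcl3, counted from -1 at the last base before the start. Only 28 of 32851 promoter windows of the same length (0.0852%) held these letters. The second kappaB spelling that was searched was in 46 windows (0.14%) and in no member's. Other spellings of the kappaB motif were not searched, so the lower-case letters of Cxcl10 and of the other windows may hold further kappaB sites. The E-box CACGTG, the element that CLOCK-BMAL1 binds and through which CRY proteins repress, was in the Cxcl3 window at base -155 and in 6.02% of all windows. The interferon element, the first run of capitals in Cxcl10, was in the windows of Cxcl10 (base -213) and Cxcl14 (base -172) and in 2.98% of all windows, and the AP-1 motif TGANTCA was in that of Cxcl10 (base -74) and in 6.75%. No matches overlapped, and the windows of Cxcl9, Cxcl12 and Cxcl15 held none of these letters. A match says only that the letters are there.

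Cxcl1 mRNA, which encodes the KC chemokine, was the most abundant of the neutrophil-attracting group in CPN-/- and was low in both lines with exogenous CRY. It was counted 2084 and 1822 times in the CPN-/- libraries, 28 and 39 times in those with CRY1, and 19 and 17 times in those with CRY2. The CPN-/- level of 67.7 ± 3.12 CPM (SD, n = 2) thus stood against 1.02 ± 0.347 CPM with CRY1 and 0.664 ± 0.0481 CPM with CRY2. No library with CRY1 or CRY2 overlapped the CPN-/- libraries. The level was 67.5-fold lower with CRY1 (95% counting interval 53.0 to 87.2) and 102-fold lower with CRY2 (73.3 to 145). These intervals cover counting error only.

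Cxcl5, which encodes the chemokine LIX, was nearly absent from the lines with exogenous CRY. The 360 and 301 counts in the CPN-/- libraries, or 11.4 ± 0.165 CPM (SD, n = 2), compared with 1 and 0 counts with CRY1 and with 0 in both libraries with CRY2. The ratio was 765-fold for CRY1, and its counting interval of 137 to 30261 shows how little a single count fixes it. The CRY2 level, set at the limit of 3 counts per library, was at least 103-fold lower than the CPN-/- level.

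Cxcl2, which encodes MIP-2, and its close relative Cxcl3 were low in CPN-/- and absent from the counts of both other lines. Cxcl2 had 18 and 22 counts in CPN-/- (0.566 and 0.844 CPM) and 0 in all 4 other libraries, so that it was at least 7.82-fold lower with CRY1 and at least 6.37-fold lower with CRY2. Cxcl3 had 7 and 8 counts in CPN-/- (0.22 and 0.307 CPM) and 0 elsewhere, which gave at least 2.92-fold for CRY1 and at least 2.38-fold for CRY2. The 2 transcripts share an identical run of 110 bases, against at most 23 bases for any other pair of members, so that a read wholly inside that run cannot be given to one of them.

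Cxcl15, or lungkine, was low in CPN-/- and at or near 0 in the other lines. Its counts were 17 and 13 in CPN-/-, 0 and 0 with CRY1, and 2 and 0 with CRY2. It was at least 5.73-fold lower with CRY1, and the ratio for CRY2 was 14.1-fold with a counting interval of 3.57 to 121.

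**Figure D1:**
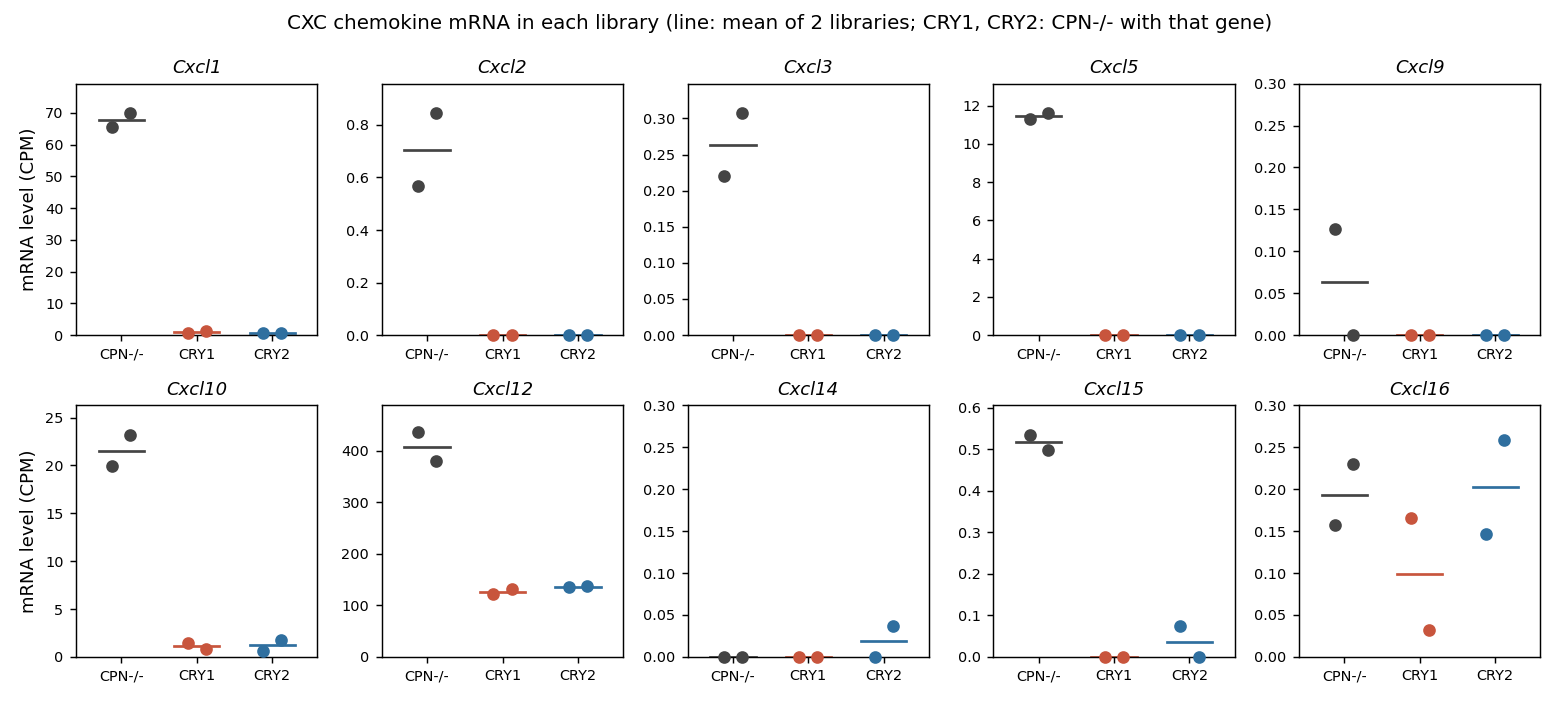
Level of each CXC chemokine mRNA (y axis, CPM) in each of the 6 libraries, by line (x axis), with points for libraries and a horizontal line for the mean of 2. The scale differs between panels: Cxcl12 is at 436 and 380 CPM in CPN-/- while Cxcl3, Cxcl9, Cxcl14 and Cxcl16 stay at or below 0.307 CPM everywhere, and only Cxcl9, Cxcl14 and Cxcl16 show CPN-/- libraries that are not above all others.

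Of the interferon-inducible pair, only Cxcl10 was expressed at a level that could be followed. Cxcl10, or IP-10, had 634 and 605 counts in CPN-/-, 52 and 25 with CRY1, and 17 and 48 with CRY2. From 21.6 ± 2.32 CPM (SD, n = 2) in CPN-/- it went to 1.12 ± 0.444 CPM with CRY1 and 1.2 ± 0.816 CPM with CRY2, so that the lines with CRY1 and CRY2 overlapped each other and not CPN-/-. It was 18.6-fold lower with CRY1 (14.8 to 23.8) and 17.9-fold lower with CRY2 (13.9 to 23.3). The libraries with CRY2 stood at 0.625 and 1.78 CPM, a spread that the counting intervals do not cover, and the fitted log2 fold change of -4.16 with CRY2 was -5.1 without CRY2 replicate 2. Cxcl9, or MIG, had 4 counts in 1 CPN-/- library and 0 in the other 5. No fold could be given for it. Cxcl10 lies within the span of Art3 without sharing an exon, and Art3 had at most 1 count in a library.

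Cxcl12, which encodes the stromal factor SDF-1, was the most abundant member by count in every library and differed the least between the lines of the 6 members that passed the filter on low counts. The CPN-/- libraries held 13859 and 9901 counts, those with CRY1 4367 and 4063, and those with CRY2 3692 and 3688. As levels these were 408 ± 39.4 CPM (SD, n = 2) in CPN-/-, 126 ± 7.75 CPM with CRY1 and 136 ± 0.726 CPM with CRY2. The CPN-/- libraries were above the other 4. The level was 3.26-fold lower with CRY1 (3.18 to 3.34) and 3.02-fold lower with CRY2 (2.94 to 3.1). These intervals cover counting error only and not the spread between libraries or the choice of processing. Over 13 alternative settings the fitted log2 fold change ran from -1.83 to -1.59 with CRY1 and from -1.71 to -1.48 with CRY2.

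The remaining members, Cxcl14 and Cxcl16, were hardly detected. Cxcl14 had 1 count in 1 library with CRY2 and 0 in the other 5. Cxcl16, a membrane-bound chemokine that binds Cxcr6, had 5 and 6 counts in CPN-/-, 6 and 1 with CRY1, and 4 and 7 with CRY2. The 3 lines overlapped, the ratios had counting intervals of 0.644 to 5.53 for CRY1 and 0.368 to 2.38 for CRY2, and a difference was not detectable at this depth. Cxcl16 shares 552 exon bases with Zmynd15 on the other strand, whose counts were 3 or fewer, and the strand setting of the counting was not given in the sources used here.

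Per length of the longest coding transcript, Cxcl12 and Cxcl1 were at the same height in CPN-/-. That transcript has 5627 bases for Cxcl12 and 953 for Cxcl1. The equality depends on these lengths, since a shorter Cxcl12 transcript would give Cxcl12 a higher level per kb. Cxcl12 was at 72.5 ± 7.0 CPM per kb (SD, n = 2) and Cxcl1 at 71.1 ± 3.27, a difference smaller than the spread between libraries. Below them came Cxcl10 at 15.9 ± 1.72 and Cxcl5 at 7.26 ± 0.105, and the other 6 members were each at or below 0.379 CPM per kb. With CRY1, Cxcl12 at 22.4 ± 1.38 CPM per kb stood alone above Cxcl1 at 1.07 ± 0.364 and Cxcl10 at 0.831 ± 0.328, and the latter pair did not differ beyond their spread. With CRY2, the same 3 were at 24.2 ± 0.129, 0.697 ± 0.0505 and 0.888 ± 0.603 CPM per kb, and Cxcl1 and Cxcl10 again did not differ beyond their spread.

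The make-up of the chemokine mRNA was a mixture in CPN-/- and almost Cxcl12 alone in the other lines. The 10 members together summed to 534 and 487 CPM in CPN-/-, 123 and 134 CPM with CRY1, and 137 and 139 CPM with CRY2. Cxcl12 made up 79.8% ± 2.47 (SD, n = 2) of their counts in CPN-/-, 98.2% ± 0.283 with CRY1 and 98.5% ± 0.566 with CRY2. The Cxcl1 group made up 15.9% ± 1.77, 0.798% ± 0.208 and 0.507% ± 0.0778 in the same order. Per length of the longest coding transcript the Cxcl1 group made up 47.2% ± 2.62 of the chemokine level in CPN-/-, where Cxcl12 made up 43.2% ± 3.68, and 4.38% ± 1.2 and 2.76% ± 0.361 with CRY1 and CRY2. Shares per length depend on the transcript taken for each gene. In bulk libraries, fewer cells that make an mRNA and less of it in each cell cannot be told apart.

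**Figure D2:**
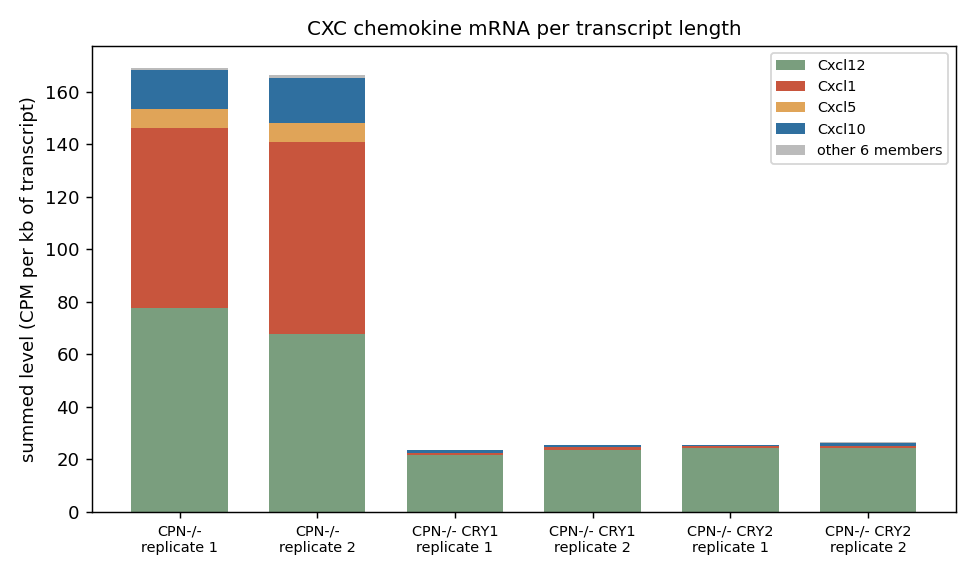
Summed level of the 10 CXC chemokine mRNAs per library (y axis, CPM per kb of the longest coding transcript), stacked by gene, with 1 bar for each of the 6 libraries. In both CPN-/- bars Cxcl1 and Cxcl12 take nearly equal parts, while in the other 4 bars Cxcl12 makes up between 91.7% and 94.9%.

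Across all genes, 14069 passed the filter on low counts, and 6 of the 10 members were among them (Cxcl1, Cxcl2, Cxcl5, Cxcl10, Cxcl12 and Cxcl15). Cxcl2, Cxcl5 and Cxcl15 passed through the CPN-/- libraries alone and so had to differ. All 6 were called lower with CRY1 (edgeR's quasi-likelihood test, adjusted p under 0.05), where 13.1% of all tested genes were called lower and 11.2% higher, and all 6 with CRY2, where 4.08% were called lower and 2.58% higher. Both libraries of the line were below both CPN-/- libraries for all 6 in each comparison, as for 34.0% of all tested genes with CRY1 and 27.2% with CRY2. The choice of the members used these contrasts, and nothing is read from the counts. The median of the 6, with lines at 0 set to their bound, was -3.6 on the log2 scale with CRY1 and -3.92 with CRY2, against -0.01 over all tested genes in both. Cxcl15 with CRY2 was called in 7 of 13 alternative settings, and not with DESeq2 or when only the 4 libraries compared were fitted. Cxcl2 lost its call with CRY1 when CRY1 replicate 1 was left out and with CRY2 when either CRY2 replicate was left out. Cxcl15 lost its call with CRY1 when either CRY1 replicate was left out and with CRY2 when any 1 of the 4 libraries with exogenous CRY was left out.

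No member was called between the lines with CRY1 and CRY2. Of the 6, 0 were called between them, against 16.3% of all tested genes (8.57% lower and 7.72% higher with CRY1), and 0 had an unadjusted p under 0.05 in edgeR or in DESeq2. The log2 difference of CRY1 minus CRY2 was 0.60 with a standard error of 0.29 for Cxcl1, -0.07 with 0.48 for Cxcl10 and -0.11 with 0.11 for Cxcl12. Both CRY1 libraries were below both CRY2 libraries for 1 of the 6, Cxcl12, as for 36.9% of all tested genes.

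Other ligands of the family, which the list of 10 did not hold, were counted in the same way. Ppbp, which encodes the platelet basic protein and lies between Cxcl5 and Pf4, had 125 and 105 counts in CPN-/-, 1 and 1 with CRY1, and 7 and 3 with CRY2. The CPN-/- libraries were above all others, by 133-fold for CRY1 (36.4 to 1106) and 21.5-fold for CRY2 (11.5 to 45.5). Ppbp passed the filter through the CPN-/- libraries alone and so had to be lower in both comparisons, and its calls there are not read as results. It was not called between CRY1 and CRY2 (adjusted p = 0.067). Its fitted log2 fold change with CRY2 was -4.4, and -5.11 without CRY2 replicate 1. Pf4, platelet factor 4, had 2 and 3 counts in CPN-/- and 0 in the other 4 libraries. Cxcl17 had at most 2 counts in a library, and Cxcl11 and Cxcl13 were at 0 in all 6.

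Of the receptors, only the scavenger Ackr3 had more than 22 counts in a library. Ackr3, which takes up Cxcl12 without G protein signalling, was at 12.6 and 13.4 CPM in CPN-/-, 4.29 and 2.92 CPM with CRY1, and 10.3 and 11 CPM with CRY2. It fell with CRY1 (log2 fold change -1.84, standard error 0.19, adjusted p = 0.0014), and with CRY2 its log2 value was -0.29 with an adjusted p of 0.34. The difference between the lines with CRY1 and CRY2 was itself past the threshold, at -1.56 with a standard error of 0.19 (adjusted p = 0.0031). Cxcr1, Cxcr2 and the Duffy receptor Ackr1 were at 0 counts in every library. Cxcr3 and Cxcr4, the signalling receptors of Cxcl10 and Cxcl12, had at most 1 count. Cxcr5, the receptor of Cxcl13, was tested and had between 9 and 22 counts, with none of its 3 comparisons past the threshold, and Cxcr6 had between 2 and 13 counts and was not tested.

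The pathway lists held 54 genes in all, the other ligands and receptors included, and 43 were tested. With CRY1, 9 were called lower and 7 higher, 37.2% of those tested against 24.3% of all genes. With CRY2, 6 were lower and 2 higher, 18.6% against 6.66%. The genes called lower in both comparisons include Ppbp, which had to be lower. Between CRY1 and CRY2, 6 were lower and 8 higher with CRY1, 32.6% against 16.3%. The list medians were 0.08, -0.03 and 0.14 on the log2 scale, beside -0.01, -0.01 and 0 for all tested genes. The counts moved with single libraries. With CRY1 against CPN-/-, 29 and 28 genes were called without CPN-/- replicate 1 and 2, and 8 without either CRY1 replicate. With CRY2, 31 and 20 were called without CPN-/- replicate 1 and 2, and 3 without either CRY2 replicate. Between CRY1 and CRY2, 31 were called without either CPN-/- replicate, 4 and 5 without CRY1 replicate 1 and 2, and 5 and 4 without CRY2 replicate 1 and 2.

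Of 7 receptor signalling genes tested, 1 was called with CRY1 (14.3%, against 24.3% of all tested genes). Grk2, a kinase that desensitizes chemokine receptors, was called higher with CRY1 (114 and 122 CPM in CPN-/-, 158 and 162 CPM with CRY1). Its log2 fold change was 0.44 with a standard error of 0.09 (adjusted p = 0.016), and it was also higher with CRY1 than with CRY2, by 0.69 (adjusted p = 0.0042). With CRY2 against CPN-/- its log2 value was -0.24 (adjusted p = 0.17). Neither of its calls was kept when any 1 of the 4 libraries with exogenous CRY was left out.

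Of 9 tested genes that hold chemokines at the cell surface or cut them loose, 1 was lower and 2 were higher with CRY1, and 2 were higher with CRY2, so that 33.3% and 22.2% were called, against 24.3% and 6.66% of all tested genes. Gpc1 was called in both comparisons, in opposite directions. Gpc1, a glypican that carries heparan sulfate, was at 190 and 166 CPM in CPN-/-, 118 and 112 CPM with CRY1, and 289 and 282 CPM with CRY2. The libraries of the 3 lines did not overlap. Gpc1 fell with CRY1 (log2 fold change -0.63, adjusted p = 0.0077) and rose with CRY2 (0.68, adjusted p = 0.012). Sdc3, a heparan sulfate proteoglycan of the cell surface, rose with CRY1 (1.05, adjusted p = 0.0033) and was at -0.11 with CRY2 (adjusted p = 0.63), and the lines with CRY1 and CRY2 differed by 1.16 (adjusted p = 0.0026). Sdc2, of the same family, rose with CRY2 (0.77, adjusted p = 0.008) and was at -0.14 with CRY1 (adjusted p = 0.34), and CRY1 minus CRY2 was -0.91 (adjusted p = 0.0024). Adam10, a protease that sheds Cxcl16, rose with CRY1 by 0.61 (adjusted p = 0.032) and was at 0.14 with CRY2 (0.6). Without CRY1 replicate 1 or 2, Gpc1 and Adam10 lost their calls with CRY1. Without CRY2 replicate 1 or 2, Gpc1 and Sdc2 lost theirs with CRY2. Gpc1 with CRY2 also lost its call without CRY1 replicate 1 or 2, as Adam10 with CRY1 did without CRY2 replicate 1 or 2, and Sdc2 lost its call between CRY1 and CRY2 without CRY1 replicate 1.

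Among 19 genes of the receptors and factors that induce chemokines, 4 were lower and 4 higher with CRY1, and 4 were lower and none higher with CRY2. The shares called were 42.1% and 21.1%, against 24.3% and 6.66% of all tested genes. Nfkbiz, a nuclear cofactor that NF-kappaB needs at a subset of its targets, was at 46.6 and 41.5 CPM in CPN-/-, 17.7 and 23.1 CPM with CRY1, and 13.1 and 15.3 CPM with CRY2. It fell by 1.12 on the log2 scale with CRY1 (standard error 0.16, adjusted p = 0.0046) and by 1.64 with CRY2 (0.16, adjusted p = 0.0025), and its call with CRY1 was lost without CRY1 replicate 1. Tlr2, a receptor for bacterial lipoproteins, fell by 1.28 with CRY1 (adjusted p = 0.00072) and by 0.79 with CRY2 (adjusted p = 0.0083), the latter not called without either CRY2 replicate. Tlr4, the receptor for lipopolysaccharide, moved the other way. It was at 14.9 and 9.71 CPM in CPN-/- and 37.3 and 36.6 CPM with CRY1, a rise of 1.58 (adjusted p = 0.0026), and its log2 value with CRY2 was 0.8 (adjusted p = 0.059), which passed the threshold without either CPN-/- replicate, with the replicate block (adjusted p = 0.032), with DESeq2 (0.0028), without a filter (0.017) and with the length trend removed (0.0045).

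Of 5 genes that act on the decay of chemokine mRNA, 2 were lower with CRY1 and 1 with CRY2. The shares called were 40.0% and 20.0%, against 24.3% and 6.66% of all tested genes. Zc3h12a, or Regnase-1, an endonuclease that degrades inflammatory mRNAs and is itself an NF-kappaB target, was at 21.5 and 19.8 CPM in CPN-/-, 7.3 and 7.04 CPM with CRY1, and 5.07 and 5.34 CPM with CRY2. It fell by 1.52 with CRY1 (standard error 0.12, adjusted p = 0.00049) and by 1.99 with CRY2 (0.12, adjusted p = 0.00045). Zfp36l1, which binds AU-rich elements, fell by 0.53 with CRY1 (adjusted p = 0.025) and did so past the threshold only while both CRY1 replicates were kept. Its adjusted p with CRY2 was 0.99.

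**Figure D3:**
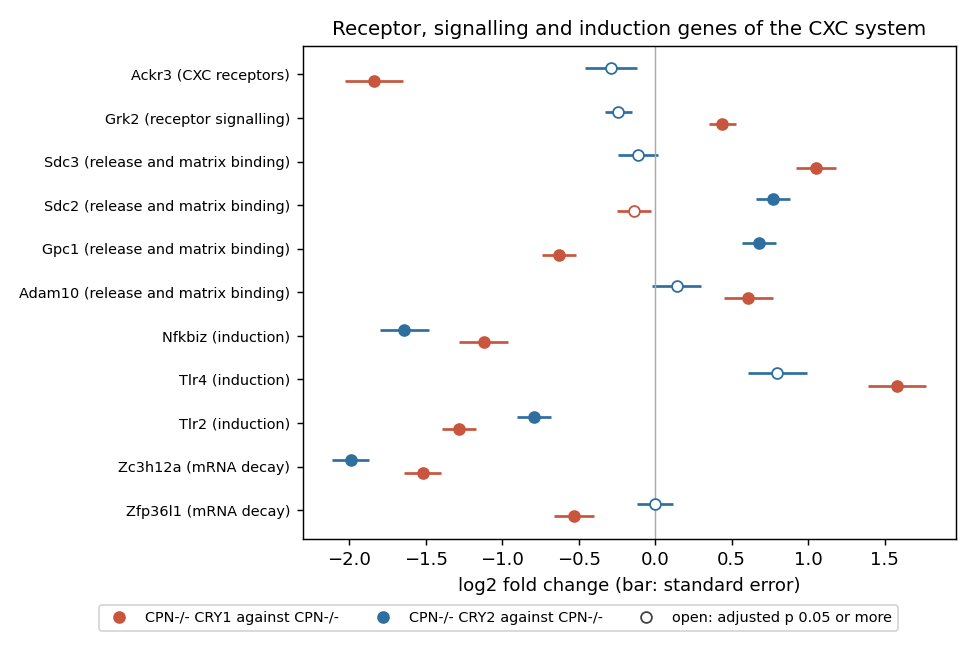
Log2 fold change against CPN-/- (x axis, with its standard error) of the named receptor, signalling, matrix, induction and mRNA decay genes (y axis), with red points for CRY1 and blue points for CRY2, filled where the adjusted p was under 0.05. Nfkbiz, Tlr2 and Zc3h12a are filled on the left for both lines, and Gpc1 is filled on opposite sides of 0.

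The genes around the chemokines on chromosome 5 were also compared. Within 500 kb of the members lie 31 other genes, of which 22 were tested. With CRY1, 6 were called lower and 2 higher (36.4%, against 24.3% of all tested genes). With CRY2, 2 were called lower and none higher (9.09%, against 6.66%). The median log2 fold change of the 22 was -0.1 with CRY1 and -0.27 with CRY2, and that of all 839 tested genes of chromosome 5 was 0.01 and -0.08. U90926, a transcript at lower coordinates than Cxcl9, had 35 and 32 counts in CPN-/-, 2 and 3 with CRY1, and 4 and 2 with CRY2. It fell by 3.88 on the log2 scale with CRY1 (standard error 0.42) and by 3.34 with CRY2 (0.41). U90926 passed the filter through the CPN-/- libraries alone and so had to be lower, and it is in both counts called lower. Btc, a ligand of the epidermal growth factor receptor, was the other gene called lower with CRY2 and was picked out after its values were seen (log2 fold change -0.88 with CRY1 and -0.85 with CRY2, adjusted p of 0.017 and 0.047). Its call with CRY2 was lost when only the 4 libraries compared were fitted. That call was also lost without any 1 of the 4 libraries with exogenous CRY, and its call with CRY1 without either CRY1 replicate. Rassf6, a Ras association domain gene and the last before Cxcl5 on that side, had 79 and 83 counts in CPN-/-, 503 and 511 with CRY1, and 53 and 36 with CRY2. It rose by 2.43 with CRY1 (standard error 0.21, adjusted p = 0.00069), in the opposite direction to the chemokines, and was at -0.78 with CRY2 (adjusted p = 0.13). Albfm1 and Afp, of the albumin cluster, had 35 and 52 and 21 and 29 counts in CPN-/-. They fell with CRY1 by 2.74 (adjusted p = 0.006) and 2.38. Like U90926, Afp passed the filter through the CPN-/- libraries alone, and it is in the count called lower with CRY1. With CRY2 the log2 values of Albfm1 and Afp were -1.36 and -2.72 (adjusted p of 0.085 and 0.054). The number of neighbours called with CRY1 was 14 without either CPN-/- replicate and 3 without either CRY1 replicate. With CRY2 it was 12 and 9 without CPN-/- replicate 1 and 2, and 1 or none without any 1 of the other libraries. U90926 was not called with CRY2 without CRY2 replicate 2, Albfm1 was not called with CRY1 without either CRY1 replicate, and Afp was not called with CRY1 without any 1 of the 4 libraries with exogenous CRY. The log2 fold change of Afp with CRY1 was -3.66 without CRY1 replicate 1 and -1.79 without CRY1 replicate 2.

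**Figure D4:**
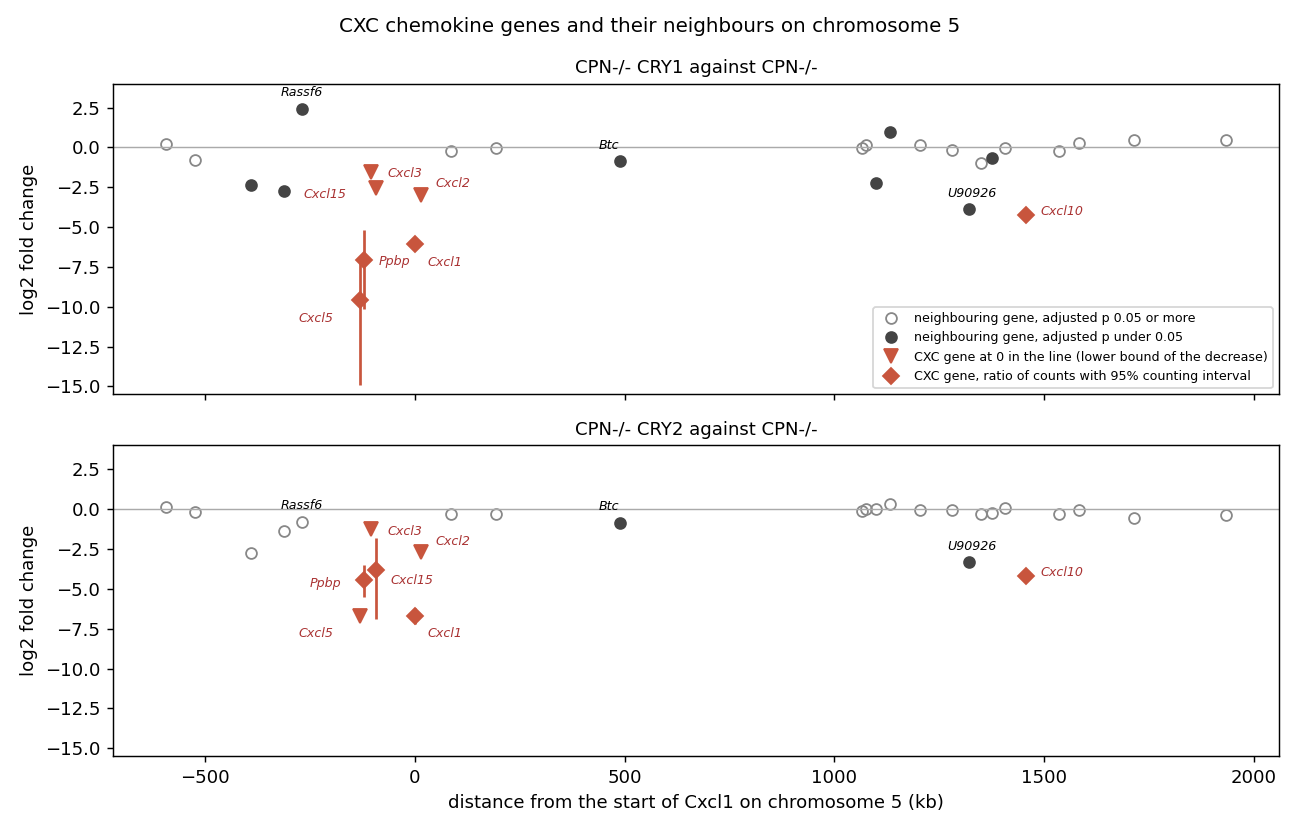
Log2 fold change (y axis) of the genes on chromosome 5 by their distance from the start of Cxcl1 (x axis, kb), with CRY1 in the upper panel and CRY2 in the lower. Red triangles are lower bounds for chemokines at 0 counts, red diamonds are count ratios with 95% counting intervals, and circles are the neighbouring genes, filled where the adjusted p was under 0.05. Chemokine genes with too few counts for a fold, such as Cxcl9 and Pf4, are not drawn, and lower bounds can only lie below 0. The members were chosen with these contrasts known and Ppbp had to be lower, so the place of the chemokine symbols below 0 is not a result. Most neighbours lie near 0, with Rassf6 above 0 for CRY1 and U90926 below 0 for both.

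The genes outside the family whose pattern was nearest to that of Cxcl1 over the 6 libraries were Nos2, C3 and H19. Likeness was the root mean square difference of log2(CPM + 0.5) values, each centred on its mean, and it was 0.53, 0.54 and 0.64. Nos2, the inducible nitric oxide synthase, had 563 and 336 counts in CPN-/- and 3 or fewer in each other library. C3, the central complement component, had 2207 and 1150 counts in CPN-/- and 8 or fewer elsewhere. For Cxcl5 the nearest were H19 (0.16), Nos2 (0.19) and Lcn2 (0.4). H19, an imprinted non-coding RNA, had 442 and 397 counts in CPN-/- and between 3 and 8 elsewhere, and Lcn2, the siderophore-binding lipocalin 2, had 191 and 186 counts and 2 or fewer elsewhere. Among the members, Cxcl10 was nearest to Cxcl5 (0.49) and Cxcl5 to Cxcl1 (0.57). These values describe 6 libraries in 3 lines. Cxcl5 was at 0.0277 CPM or less in the libraries with exogenous CRY, under the 0.5 CPM added before taking logs. Its likeness therefore says little about differences between such low levels or about the size of the fold.

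Markers of leukocytes, endothelial cells and epithelial cells were low in all 3 lines. The neutrophil markers S100a9, Ly6g and Mpo were at 0 in all libraries, and S100a8 made up the whole sum of the 4 neutrophil markers, 0.192 to 0.283 CPM in CPN-/-, 0.0553 to 0.0973 with CRY1 and 0.0371 to 0.11 with CRY2. The 6 macrophage markers summed to 12.5 to 15.4 CPM in CPN-/-, 12.5 to 12.9 CPM with CRY1 and 10.1 to 11 CPM with CRY2, nearly all of it Cd14 and Cd68, while Ptprc, Adgre1 and Itgam had at most 2 counts. Of these 6, 2 were tested and 0 were called by edgeR in any comparison. The 4 endothelial markers summed to at most 1.0 CPM and the 4 epithelial markers to at most 1.37 CPM, with Epcam at 0.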

How the data were processed

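mRNA was measured in 6 MEF libraries, 2 for each of CPN-/-, CPN-/- CRY1 and CPN-/- CRY2. The authors prepared stranded poly(A) libraries, mapped paired-end reads to mm10 with STAR and obtained a count for each gene from featureCounts. The annotation, the strand setting and the treatment of reads with several matches are not given in the sources used here. The deposited files hold these whole-number counts for 27179 genes by NCBI Gene identifier, of which 25275 had a RefSeq symbol.

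Counts were used as deposited in R 4.3.3. Genes were kept by filterByExpr (count minimum 10, total minimum 15), and edgeR 4.0.16 fitted the line as the only term to all 6 libraries, with TMM factors between 0.991 and 1.01, a robust quasi-likelihood two-sided test and Benjamini-Hochberg adjustment over the 14069 genes. The standard error of a log2 fold change was taken as its absolute value divided by the square root of the test's F statistic. CPM used TMM-scaled library sizes, and levels per kb used the longest coding transcript. A line at 0 was set to 3 counts per library for a lower bound, and lines with any count were given as ratios of summed counts with exact binomial (Clopper-Pearson) 95% intervals. Depth was 25957409 to 36106949 counts, and intervals cover counting error only. Near-identical sequence was searched with BLAST+ 2.17.0 (95% identity over 150 bases or more), and apart from the overlap of Cxcl16 with Zmynd15 none was found.

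Named genes were all members, every receptor, at most 4 called genes per pathway or neighbour list by largest fold against CPN-/-, and the 3 genes nearest to Cxcl1 and Cxcl5. A gene that this rule names is not reported here. The members and lists were chosen with earlier results of these data known. Alternatives were DESeq2 1.42.0, RLE or library size scaling, no filter, a replicate block, the 4 libraries of a comparison, removal of the trend with transcript length (loess, span 0.5) and each library left out in turn. The edgeR fit (TMM and RLE), the DESeq2 fit and the removal of the length trend were tested on simulated data for CPN-/- CRY1 against CPN-/-. Of 200 genes changed by 1.5 on the log2 scale, edgeR with TMM recovered 92.5% with 20 false calls. DESeq2 recovered 89.5% with 27 false calls. In both, false calls were a larger share of all calls than the threshold of 0.05 implies. With a simulated length trend, edgeR made 6 false calls with the trend left in and 11 with it removed.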

Additional observations from a re-analysis of the deposited data

Results flagged for a closer look

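The results here were singled out because the direct comparison of CPN-/- CRY1 with CPN-/- CRY2 passed the threshold (edgeR, adjusted p under 0.05). It tests the difference between the lines, in which a property of the colony and an effect of the CRY protein cannot be told apart. All are log2 differences of CRY1 minus CRY2. Of the pathway and neighbour lists, only genes already named for their fold against CPN-/- were considered. Further genes of these lists also passed the threshold in the direct comparison. Among the chemokine genes none was singled out.

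Ackr3, the scavenger receptor of Cxcl12, differed by -1.56. Gpc1, the glypican, differed by -1.31 and was on opposite sides of CPN-/- in the 2 lines. Sdc2 differed by -0.91 and Sdc3 by 1.16. Grk2 differed by 0.69. Rassf6, the neighbour of the Cxcl5 end of the cluster, differed by 3.21. Among the induction genes, Tlr4 differed by 0.77 and Tlr2 by -0.49. Of the mRNA decay genes, Zc3h12a differed by 0.46 and Zfp36l1 by -0.53. The differences of Ackr3, Gpc1, Sdc3 and Rassf6 stayed past the threshold in all 13 alternatives. Those of Grk2, Tlr2, Tlr4, Zc3h12a and Zfp36l1 each lost it without any 1 of the 4 libraries with exogenous CRY, that of Zc3h12a also with DESeq2, with the replicate block, with library size scaling and without a filter, and that of Sdc2 without CRY1 replicate 1.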

How the results depend on the processing

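The number of chemokine genes called was 6 with CRY1, 6 with CRY2 and 0 between CRY1 and CRY2 under every alternative other than leaving out a library, except that 7 were called with CRY1 without a filter and that DESeq2 and the 4-library fit called 5 with CRY2. With a library left out it was 4 to 6 with CRY1, 4 to 6 with CRY2 and 0 between them; a line left with 1 library was assumed to vary like the others. The pathway count with CRY1 was 25 with the length trend removed and 8 to 29 with a library left out. With CRY2 it was 14 with the length trend removed and 3 to 31 with a library left out. Between CRY1 and CRY2 it was 31 in the 4-library fit, 27 with the length trend removed and 4 to 31 with a library left out. The count of neighbours was 3 to 14 with CRY1 with a library left out. With CRY2 it was 5 without a filter, 1 in the 4-library fit, 6 with the length trend removed and 0 to 12 with a library left out. Between CRY1 and CRY2 it was 10 in the 4-library fit and 1 to 10 with a library left out. The cause of these shifts was not tested. Of the log2 values of single genes, 549 kept direction and side of the threshold, 57 lost the call, 12 gained it and 6 reversed. This tally leaves out Btc and the members with 3 counts or fewer in a line, Cxcl2, Cxcl5 and Cxcl15. The calls that Btc, Cxcl2 and Cxcl15 lost are given above. Of the genes in the tally, the 4-library fit lost Adam10, Afp and Grk2 with CRY1 and Gpc1 with CRY2. Reversals touched only values not past the threshold. With a library left out, Cxcl10 between CRY1 and CRY2 ranged from -0.64 to 0.86, Sdc3 with CRY2 from -0.27 to 0.09 and Zfp36l1 with CRY2 from -0.16 to 0.14, and the last was 0.06 with the length trend removed. Depth limits Cxcl3, Cxcl9, Cxcl14 and Cxcl16.

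Replicate numbers did not pair the libraries: deviations of same-numbered libraries correlated at -0.08 between CPN-/- and CRY1, 0.14 between CPN-/- and CRY2 and -0.03 between CRY1 and CRY2. With the replicate block, 6, 6 and 0 chemokine genes, 19, 10 and 13 pathway genes and 8, 3 and 5 neighbours were called with CRY1, with CRY2 and between them.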
